A study of Mus musculus with 12 samples.

Results

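The collagen chain genes are the protein-coding genes that encode the alpha chains of collagen. They were taken from the deposited table by symbol (Col, a type number, the letter a and a chain number), which gave 44 of 53801 genes. A gene was tested where its mean level over the 12 libraries reached 1 FPKM (fragments per kilobase of transcript, scaled to the size of the library), which 18 of the 44 chains and 14246 genes in all did. The symbol rule itself holds no measured value, although the family was picked for description with earlier results of these data known.

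RNA was sequenced from flank tumours of LLC, a mouse line of lung carcinoma that grows in its own strain, here in female C57BL/6 mice aged 6 to 8 weeks. All groups received 3 M (M, 1e6) LLC cells per flank in Matrigel, a basement membrane extract, and 6 mice carried the 10 to 12 tumours of a group. Once the total tumour volume reached 100 mm3, injections of 100 µL into the peritoneum followed for 4 weeks at 2 times per week. The 4 groups received vehicle (libraries 2, 3 and 5), cisplatin, a DNA cross-linking platinum drug (1, 2 and 3), brivanib, which blocks the kinases of VEGF and FGF receptors (2, 3 and 5), or both drugs together, called the combination (2, 3 and 4). No dose is stated in the sources used here. Since both flanks of each mouse were injected and the labels name no animals, libraries of a group may share a mouse, and the p-values cover the spread between these samples alone. A whole tumour was measured, so fewer cells of a type and less RNA per cell cannot be told apart. The tumour and host share the mouse genome, and a chain's RNA could come from either.

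Collagens are the main structural proteins of the extracellular matrix. Their chains wind into a long helix and then assemble by class: fibrillar chains form banded fibrils, FACIT chains coat those fibrils, type IV chains build the sheet of basement membranes, and type VI chains form beaded filaments. In tumours much of the fibrillar collagen is made by fibroblasts, while endothelial and tumour cells also make type IV collagen.

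The helix rests on a repeat in which glycine opens each triplet of amino acids. Of the 18 tested chains, 17 had a main transcript with a complete start in GENCODE M21 (Col16a1 did not), and its coding sequence was read for runs of triplets that begin with a glycine codon. In the fibrillar chains Col1a1, Col1a2, Col3a1, Col5a1, Col5a2 and Col5a3 the longest run held 338, 339, 344, 338, 339 and 337 triplets. In the type IV chains Col4a1 and Col4a2 it held 40 and 66, in the beaded filament chain Col6a3 it held 45, and in the FACIT chains Col12a1 and Col14a1 it held 32 each. Runs of at least 3 triplets covered 73.3% of the codons of Col1a1 and 78.9% of those of Col4a1, but 13.9% of those of Col14a1. The first 10 triplets of the longest run are printed for 5 chains of different classes on which the results turn, 5′ to 3′, with the glycine codons in capitals, to show the repeat they share.
Col1a1: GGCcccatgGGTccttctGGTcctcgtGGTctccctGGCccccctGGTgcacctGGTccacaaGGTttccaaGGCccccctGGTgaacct
Col3a1: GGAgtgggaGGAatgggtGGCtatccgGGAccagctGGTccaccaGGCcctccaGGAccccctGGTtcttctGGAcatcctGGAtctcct
Col4a1: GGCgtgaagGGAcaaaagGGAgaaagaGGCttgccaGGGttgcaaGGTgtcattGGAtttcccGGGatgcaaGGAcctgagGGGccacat
Col6a3: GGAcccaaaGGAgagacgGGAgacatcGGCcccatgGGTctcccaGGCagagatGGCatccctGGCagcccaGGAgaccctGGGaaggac
Col14a1: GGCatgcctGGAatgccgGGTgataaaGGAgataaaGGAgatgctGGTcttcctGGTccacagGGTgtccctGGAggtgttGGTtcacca

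With brivanib alone, 6 of 18 tested chains were higher than with vehicle, against 1.71% of all genes. They were the fibrillar chains Col1a1, Col1a2 and Col5a2, the FACIT chains Col12a1 and Col14a1, and the beaded filament chain Col6a3. In the combination, 9 of 18 were lower than with brivanib alone, against 1.85% of all genes. Among them were 5 of the 6 tested fibrillar chains. Col14a1 is in both counts and reached the limit for testing through the brivanib libraries alone. Neither type IV chain passed the test in any of the 6 comparisons. No tested chain passed for cisplatin or the combination against vehicle, where 0.19% and 2.34% of all genes passed.

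Levels are given in FPKM, which are per length and so comparable between genes. Col3a1 was the most abundant chain with a mean of 535 FPKM over the 12 libraries. It was followed by Col6a1 (134), Col4a1 (126), Col1a1 (100) and Col1a2 (99.2). Of the 26 chains below the limit, 4 had 0 fragments in every library (Col9a1, Col9a2, Col19a1 and Col26a1), which allows up to 3 fragments per library. The limits cover counting error only. The other 22 had at most 221 fragments in a library, the highest being Col6a4 at a mean of 0.986 FPKM. By class the chains tested were 6 of 11 fibrillar, 3 of 9 FACIT, 3 of 6 beaded filament, 2 of 2 multiplexin, 2 of 6 type IV, 1 of 3 short chain network, 1 of 1 anchoring fibril, 0 of 4 transmembrane and 0 of 2 other chains. The cartilage chain Col2a1 reached at most 0.135 FPKM (15 fragments).

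**Figure D1:**
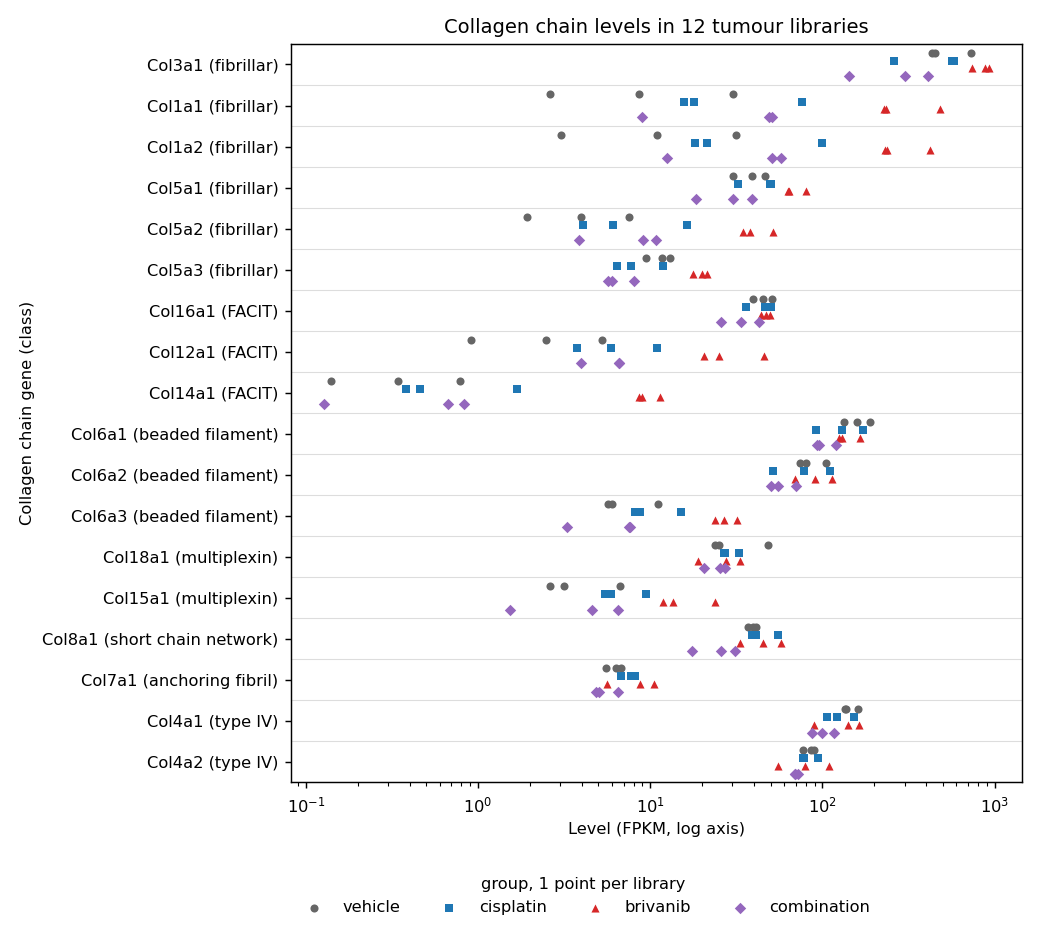
Level of each tested collagen chain (FPKM, log axis) by class, with 1 point per library and colour and shape for the group. The 3 brivanib points of Col1a1, Col1a2, Col5a2, Col12a1, Col14a1 and Col6a3 lie to the right of every point of the other groups, while the points of Col4a1 and Col4a2 lie close together.

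Depth was 17.161 to 30.943 M fragments per library, recovered from the FPKM values. Ribosomal-like features made up 38.3% of the fragments of brivanib 5, against 0.316% to 0.692% elsewhere. With all libraries scaled to equal totals, the median over all tested genes went from -0.01 to -0.34 on the log2 scale for brivanib against vehicle, and from 0.04 to 0.31 for the combination against brivanib. The libraries also differed in tissue markers, whose values stand beside the results.

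Col1a1 and Col1a2 encode the chains of type I collagen, the main fibril of skin, tendon and scar. Col1a1 (ENSMUSG00000001506, GRCm38 chromosome 11, 94936224 to 94953042, plus strand) was at 8.57, 2.63 and 30.1 FPKM in vehicle 2, 3 and 5. It was at 482, 227 and 233 FPKM in brivanib 2, 3 and 5, on 28970 to 61642 fragments. All brivanib values lay above all vehicle values, and the vehicle libraries themselves ranged over more than their mean of 13.8 FPKM. The mean rose to 314 ± 145 FPKM (SD, n = 3) from 13.8 ± 14.5, a log2 fold change of FPKM + 1 of 4.85 ± 0.84 (SE; adjusted p = 0.0118, limma with Benjamini-Hochberg adjustment over 14246 genes, as for all adjusted p-values here).

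Col1a2 (chromosome 6, 4504814 to 4541544, plus strand) had 11.0, 3.05 and 31.6 FPKM with vehicle and 419, 231 and 236 with brivanib. It rose by the same test (4.61 ± 0.80, adjusted p = 0.012). Col1a1 divided by Col1a2 was 0.714 to 1.15 in the 12 libraries. The ratio was 0.780 to 0.954 with vehicle, 0.761 to 0.865 with cisplatin, 0.982 to 1.15 with brivanib and 0.714 to 0.997 in the combination.

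Col5a2 encodes a chain of type V collagen, which sits inside type I fibrils and limits their width. Its level (chromosome 1, 45374321 to 45503282, minus strand) was 3.98, 1.92 and 7.49 FPKM with vehicle and 51.9, 38.1 and 34.4 FPKM with brivanib. The groups did not overlap, and Col5a2 rose by 3.07 ± 0.48 on the log2 scale (adjusted p = 0.00721).

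The other fibrillar chains were also higher in every brivanib library than in every vehicle library but did not pass the test. Col3a1, the chain of type III collagen, was at 727, 431 and 451 FPKM with vehicle and 883, 930 and 738 with brivanib (0.70 ± 0.38, adjusted p = 0.528). Col5a1 had means of 38.6 ± 8.22 and 69.5 ± 9.79 FPKM (0.84 ± 0.26, adjusted p = 0.174). Col5a3 had 11.3 ± 1.80 and 19.7 ± 1.91 FPKM (0.75 ± 0.20, adjusted p = 0.098). Type V chains thus differed among themselves: Col5a1 divided by Col5a2 was 5.20 to 15.7 with vehicle and 1.22 to 2.12 with brivanib.

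The make-up of the fibrillar class shifted with these values. Col3a1 was 84.8, 164 and 14.9 times Col1a1 in vehicle 2, 3 and 5, 7.68 to 36.2 times in the cisplatin libraries, 5.93 to 16.0 times in the combination libraries and 1.83 to 4.10 times with brivanib. Brivanib had the 3 lowest ratios of the 12 libraries. Col3a1 and Col5a2 lie 24614 bases apart on chromosome 1 on opposite strands, and their brivanib values differed in size (0.70 against 3.07). The difference between the 2 genes was not tested.

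Col12a1 and Col14a1 encode FACIT chains that bind to the surface of type I fibrils. Col12a1 (chromosome 9, 79598991 to 79718831, minus strand) was at 2.49, 0.909 and 5.24 FPKM with vehicle and 45.8, 20.6 and 25.1 with brivanib (3.10 ± 0.44, adjusted p = 0.00434). Col14a1 (chromosome 15, 55307750 to 55520803, plus strand) was at 0.342, 0.140 and 0.785 FPKM with vehicle, on 20 to 75 fragments. With brivanib it was at 8.58, 11.3 and 8.97 FPKM, on 880 to 1399 fragments. All brivanib libraries stood above all of the other 9 libraries, whose highest value was 1.69 FPKM in cisplatin 1. Col14a1 rose by 2.92 ± 0.29 (adjusted p = 0.000674). It reached the limit for testing through the brivanib libraries, since its mean was below 1 FPKM in the other 3 groups.

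The split of Col14a1 between isoforms was not stable: the transcript of 6457 bases was listed at 0 FPKM in brivanib 2 and at 7.96 and 6.88 in brivanib 3 and 5, while the one of 5679 bases had 5.31, 1.14 and 0.854 FPKM. Only the sum over the gene is used here. The third tested FACIT chain, Col16a1, had 45.3 ± 5.91 FPKM with vehicle and 46.9 ± 3.09 with brivanib (0.05 ± 0.18, adjusted p = 0.946).

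Type VI collagen forms beaded filaments around cells from the chains Col6a1 and Col6a2 with Col6a3 or a relative of it. Col6a3 (chromosome 1, 90765923 to 90843971, minus strand) was at 5.97, 5.69 and 11.1 FPKM with vehicle and 26.8, 31.9 and 23.7 with brivanib. It rose by 1.77 ± 0.31 (adjusted p = 0.013). Its partner chains had overlapping groups: Col6a1 was at 160 ± 27.4 and 139 ± 22.0 FPKM (-0.19 ± 0.21, adjusted p = 0.787), and Col6a2 at 86.4 ± 16.2 and 91.2 ± 22.0 FPKM (0.07 ± 0.26, adjusted p = 0.957). The ratio of Col6a1 to Col6a3 was 12.0 to 31.5 with vehicle and 4.83 to 5.25 with brivanib, while that of Col6a1 to Col6a2 was 1.37 to 1.98 over all 12 libraries.

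The multiplexins Col15a1 and Col18a1 encode basement membrane zone collagens whose ends can be cut off as separate fragments. Col15a1 was at 3.17, 2.62 and 6.66 FPKM with vehicle and 13.6, 23.7 and 11.9 with brivanib, with no overlap, and its test missed the threshold (1.77 ± 0.41, adjusted p = 0.0507). Col18a1 had 24.9, 48.5 and 23.7 FPKM with vehicle and 33.2, 27.4 and 19.0 with brivanib (-0.24 ± 0.26, adjusted p = 0.784). Col8a1, a short chain collagen of vessel walls, had 39.2 ± 2.28 and 45.2 ± 12.3 FPKM (0.17 ± 0.22, adjusted p = 0.836). Col7a1, which anchors the epidermis to the dermis, had 6.21 ± 0.654 and 8.28 ± 2.51 FPKM (0.33 ± 0.19, adjusted p = 0.55).

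Type IV chains form the network of every basement membrane, and Col4a1 and Col4a2 are its ubiquitous pair. Col4a1 was at 135, 161 and 136 FPKM with vehicle and 164, 141 and 89.7 with brivanib (-0.17 ± 0.21, adjusted p = 0.812). Col4a2 was at 77.4, 89.9 and 85.8 FPKM with vehicle and 109, 78.7 and 55.1 with brivanib (-0.11 ± 0.19, adjusted p = 0.879). The groups overlapped for both. The 2 genes stand head to head on chromosome 8 with starts that overlap by 22 bases in the deposited annotation, and since no strand setting is named, fragments from that overlap cannot be assigned to either. Col4a1 divided by Col4a2 was 1.22 to 1.79 over the 12 libraries.

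Counted over the family, 6 of 18 tested chains passed higher and 0 lower for brivanib against vehicle, where 1.71% of all genes passed higher and 1.81% in either direction. The 6 include Col14a1, which was tested only through the level it had in the brivanib libraries. The median log2 fold change was 0.73 over the 18 chains and -0.01 over all genes. Groups did not overlap, with brivanib higher, for 10 of 18 chains, against 8.95% of all genes. By class, 3 of 6 fibrillar, 2 of 3 FACIT and 1 of 3 beaded filament chains rose, and 0 of 2 type IV, 0 of 2 multiplexin, 0 of 1 short chain and 0 of 1 anchoring fibril chains. Without vehicle 2 or without vehicle 3 the count was 3. With equal totals the same 6 chains were called and the members' median was 0.37, and Col16a1, Col6a2 and Col8a1 then changed sign (-0.31, -0.31 and -0.20). With ribosomal-like features removed before that scaling, the same 6 were called and the members' median was 0.67. The median of all genes was then -0.06.

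**Figure D2:**
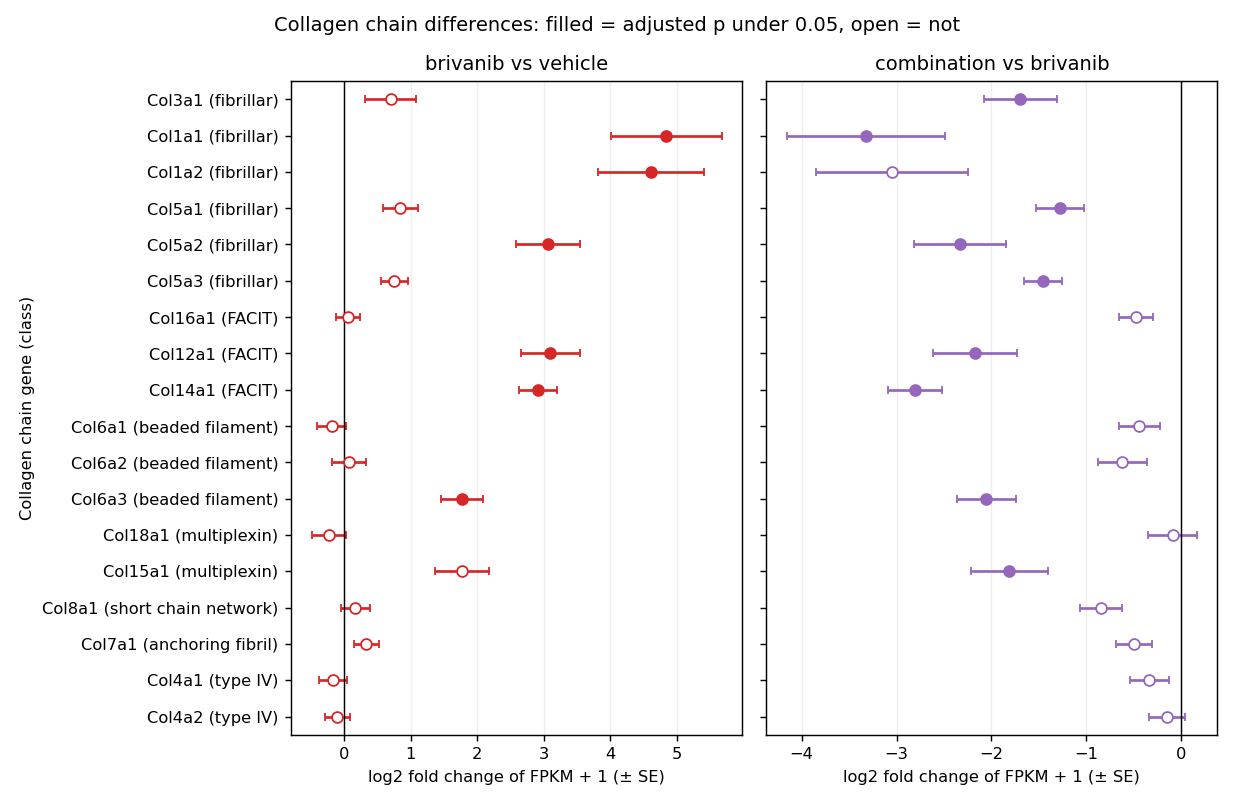
Log2 fold change of FPKM + 1 with its SE for each tested collagen chain, for brivanib against vehicle and for the combination against brivanib, with filled points for adjusted p under 0.05. Filled points lie at 1.77 to 4.85 in the first comparison and at -3.32 to -1.28 in the second, and the type IV chains lie near 0 in both.

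With cisplatin alone no tested chain passed. In cisplatin 1, 2 and 3, Col1a1 was at 75.6, 18.1 and 15.7 FPKM and Col1a2 at 99.3, 21.3 and 18.2. Cisplatin 1 was the highest of its group for both, and the ranges overlapped those of vehicle (Col1a1 1.50 ± 0.84, adjusted p = 0.445). Of 18 chains, 0 passed by limma, against 0.19% of all genes, and 0 by voom on recovered fragments. At an unadjusted p under 0.05, which 14.3% of all genes reached, there was 1, Col12a1, at 10.9, 3.76 and 5.90 FPKM (1.08 ± 0.44, adjusted p = 0.289). The median over the chains was 0.18, against 0.07 over all genes.

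The combination was next compared with brivanib alone. Its libraries are labelled with both drugs, and the comparison shares the brivanib libraries with the one above, so its values are given on their own. Col1a1 was at 50.8, 8.94 and 49.1 FPKM in combination 2, 3 and 4, below all 3 brivanib values. The difference was -3.32 ± 0.84 (adjusted p = 0.0497), and the call was lost in 21 of 28 alternative settings. Col1a2 was at 51.0, 12.5 and 57.2 FPKM, also without overlap, and missed the threshold (-3.05 ± 0.80, adjusted p = 0.058).

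Col3a1 was at 301, 143 and 410 FPKM in the combination, against 738 to 930 FPKM with brivanib, and was lower by the test (-1.70 ± 0.38, adjusted p = 0.0339). The type V chains were lower as well. Col5a2 was at 9.08, 3.84 and 10.8 FPKM (-2.33 ± 0.48, adjusted p = 0.0241), Col5a1 at 30.1, 18.3 and 39.1 (-1.28 ± 0.26, adjusted p = 0.0225) and Col5a3 at 5.98, 5.71 and 8.01 (-1.46 ± 0.20, adjusted p = 0.00521). Combination 3 held the lowest value of the group for each of these fibrillar chains, and without it 3 chains were called in place of 9. The count was also 3 without brivanib 5 or without combination 2, and 5 without brivanib 2.

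Outside the fibrillar class 4 chains were lower in the combination than with brivanib. Col14a1 was at 0.832, 0.128 and 0.673 FPKM (-2.81 ± 0.29, adjusted p = 0.001), within the range of the vehicle and cisplatin libraries apart from its lowest value. Col12a1 was at 6.62, 3.96 and 6.58 FPKM (-2.17 ± 0.44, adjusted p = 0.0234). Col6a3 was at 7.59, 3.29 and 7.53 FPKM (-2.06 ± 0.31, adjusted p = 0.00945). Col15a1 was at 4.59, 1.54 and 6.50 FPKM (-1.81 ± 0.41, adjusted p = 0.0325).

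Col8a1 did not overlap between the groups, at 30.9, 17.6 and 25.8 FPKM in the combination and 33.0 to 57.6 with brivanib, and missed the threshold (-0.84 ± 0.22, adjusted p = 0.0581). Type IV chains overlapped: Col4a1 was at 100, 87.5 and 117 FPKM (-0.34 ± 0.21, adjusted p = 0.367) and Col4a2 at 68.9, 71.9 and 69.7 FPKM (-0.15 ± 0.19, adjusted p = 0.691). Of the 18 chains, 9 passed lower and 0 higher, where 1.85% of all genes passed lower and 3.87% in either direction. The 9 again include Col14a1, tested only through its brivanib level. Groups did not overlap, with the combination lower, for 13 of 18 chains, against 9.14% of all genes. The median was -1.37 over the chains and 0.04 over all genes.

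Promoters of the fibrillar chains called lower in the combination than with brivanib were read where RefSeq gives one. The table of promoters (build GRCm38.p6, 250 bases before each start) matched 35 of the 44 chains, and Col1a1, Col5a2, Col12a1 and Col14a1 were not among them. The 250 bases before the start of Col3a1, Col5a1 and Col5a3 are printed 5′ to 3′ on the strand of the gene, and capitals mark matches on either strand to 3 promoter motifs. They are the CCAAT box (CCAAT), the GC box to which Sp1 binds (GGGCGG) and the classical TATA box (TATAAA).
Col3a1 promoter, chr1:45311288-45311537, plus strand: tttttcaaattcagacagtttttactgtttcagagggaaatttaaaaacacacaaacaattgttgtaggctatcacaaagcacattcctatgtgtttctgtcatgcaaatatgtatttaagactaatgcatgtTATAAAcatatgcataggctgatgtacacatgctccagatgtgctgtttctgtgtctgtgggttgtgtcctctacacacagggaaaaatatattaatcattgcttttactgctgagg
Col5a1 promoter, chr2:27886175-27886424, plus strand: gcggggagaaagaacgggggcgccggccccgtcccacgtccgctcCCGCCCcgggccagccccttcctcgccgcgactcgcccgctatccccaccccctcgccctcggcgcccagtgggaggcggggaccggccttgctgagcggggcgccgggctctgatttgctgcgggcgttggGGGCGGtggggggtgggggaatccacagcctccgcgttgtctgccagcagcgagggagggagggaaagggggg
Col5a3 promoter, chr9:20815068-20815317, minus strand: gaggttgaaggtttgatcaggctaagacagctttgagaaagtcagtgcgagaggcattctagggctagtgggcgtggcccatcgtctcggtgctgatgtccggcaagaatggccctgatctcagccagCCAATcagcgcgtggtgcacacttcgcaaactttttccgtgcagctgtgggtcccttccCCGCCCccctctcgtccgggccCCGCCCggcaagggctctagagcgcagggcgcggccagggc

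Col3a1 had a TATA box match 117 bases before its start and no match to the other motifs. Col5a1 had GC boxes 205 and 73 bases before its start, and Col5a3 had a CCAAT box at 122 bases and GC boxes at 63 and 41 bases. Among all 32851 windows of this length, the CCAAT box was found in 33.8%, the GC box in 32.7% and the TATA box in 12.4%, on either strand. A match is a string of letters and not a site shown to be in use, and the 3 motifs did not overlap one another in the printed windows.

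Against vehicle and against cisplatin no tested chain of the combination passed. In the combination, Col1a1 had a mean of 36.3 ± 23.7 FPKM, against 13.8 ± 14.5 with vehicle (1.53 ± 0.84, adjusted p = 0.359) and 36.5 ± 33.9 with cisplatin (0.03 ± 0.84, adjusted p = 0.995). Of 18 chains, 0 passed by limma against vehicle, where 2.34% of all genes passed, and 0 by voom, with 6 at an unadjusted p under 0.05 (18.8% of all genes). Groups did not overlap, with the combination lower, for 7 chains, against 9.35% of all genes: Col3a1, Col5a3, Col4a1, Col4a2, Col6a1, Col6a2 and Col8a1. Against cisplatin 0 passed by limma, where 0.0% of all genes passed, and 0 by voom, with 3 at an unadjusted p under 0.05 (6.74% of all genes). There 4 chains did not overlap and were lower, against 7.44% of all genes: Col4a2, Col6a3, Col7a1 and Col8a1. Col8a1, for one, was at 39.2 to 55.6 FPKM in the cisplatin libraries and 17.6 to 30.9 in the combination (-0.86 ± 0.22, adjusted p = 0.657).

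A further contrast, the interaction, set the difference between the combination and cisplatin against the difference between brivanib and vehicle. It called 1 of 18 chains, Col14a1 (-3.13 ± 0.41, adjusted p = 0.0129), against 0.14% of all genes. Since Col14a1 was tested only through its brivanib level, this count carries that limit. All 18 interaction values were below 0, from -4.82 for Col1a1 (± 1.18, adjusted p = 0.157) to -0.002 for Col18a1, and 12 had an unadjusted p under 0.05, against 10.0% of all genes. The median was -1.27 over the chains and -0.02 over all genes. The Col14a1 call was lost in 8 of the 26 alternatives that gave it a value, among them without vehicle 2, without vehicle 3 and with the muscle score as a covariate. With equal totals, which moved the median of all genes to 0.31, the interaction called 6 chains: Col1a1, Col1a2, Col5a2, Col12a1, Col14a1 and Col6a3. With ribosomal-like features removed before that scaling, the median of all genes was 0.03.

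The summed level of all 44 chains was 1119 to 1450 FPKM with vehicle, 832 to 1399 with cisplatin, 1874 to 2634 with brivanib and 585 to 1077 in the combination. Fibrillar chains made up 68.3% to 72.9% of that sum in the brivanib libraries and 33.1% to 59.7% in the other 9. Type IV chains made up 7.75% to 10.3% with brivanib and 13.2% to 27.3% elsewhere. The brivanib libraries thus stood apart from the rest in both shares, and a share falls when another class rises. Col1a1 alone was 18.3%, 10.1% and 12.5% of the sum in brivanib 2, 3 and 5, and 0.235% to 5.79% in the other libraries.

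**Figure D3:**
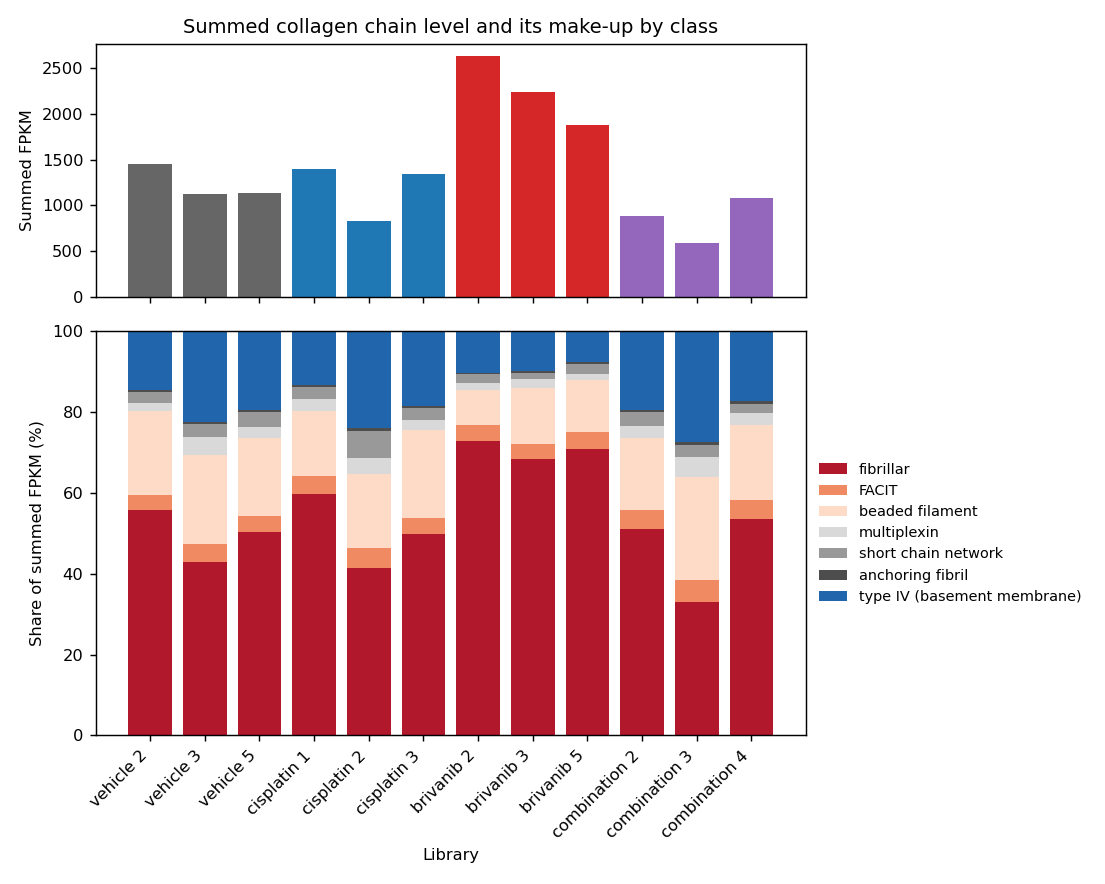
Summed FPKM of the 44 collagen chains in each library (upper bars, coloured by group) and the share of each class in that sum in percent (lower bars; transmembrane and other chains, together too small to see, are not drawn). The fibrillar share is 68.3% to 72.9% in the brivanib libraries and lower in all others.

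Chains below the limit were examined separately. With no limit on level, 22 more chains could be tested and 3 of them passed in at least 1 comparison. Of all 31661 genes tested in this way, 1.19% passed between brivanib and vehicle. The combination differed from brivanib in 1.82% and from vehicle in 0.395% of them. Col27a1, a fibrillar chain of cartilage and skin, had 0.0893, 0.133 and 0.130 FPKM with vehicle and 0.764, 0.920 and 0.958 with brivanib, on 93 to 123 fragments (0.75 ± 0.09, adjusted p = 0.00526). It was lower again in the combination than with brivanib (-0.72 ± 0.09, adjusted p = 0.00813). Col24a1, another fibrillar chain, had 0.101, 0.145 and 0.0875 FPKM with vehicle and 0.630, 0.578 and 1.09 with brivanib (0.66 ± 0.11, adjusted p = 0.0207). Col13a1, a transmembrane chain, went the other way: it had 0.201, 0 and 0.165 FPKM with vehicle, 0.176, 0.0990 and 0 with brivanib, and 0.711, 0.821 and 0.764 in the combination, on 40 to 55 fragments. It was higher in the combination than with vehicle (0.66 ± 0.10, adjusted p = 0.0311) and than with brivanib (0.70 ± 0.10, adjusted p = 0.0106). Few fragments lie behind these values.

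Cell type markers were read beside the chains, since they differed between libraries. Of 14 tested fibroblast markers, 6 rose with brivanib (Pi16, Clec3b, Fbln1, Fbn1, Mfap5 and Mfap4). In the combination 8 were lower than with brivanib (Pi16, Clec3b, Fbln1, Fbn1, Mfap4, Dcn, Thy1 and Pdgfrb). Over all tested genes these shares were 1.71% and 1.85%. Dcn, Thy1 and Pdgfrb had not passed for brivanib against vehicle. Dcn had means of 135 FPKM with vehicle, 71.1 with cisplatin, 137 with brivanib and 60.9 in the combination. It was also lower in the combination than with vehicle (-1.17 ± 0.19, adjusted p = 0.0147), the 1 marker of the list that passed there, against 2.34% of all genes. Pi16, Clec3b and Fbln1 had means below 1 FPKM in the other 3 groups, so they reached the limit for testing through the brivanib libraries alone. Mfap4 had means of 0.2375 FPKM with vehicle, 1.078 with cisplatin, 0.7229 in the combination and 5.315 with brivanib. Without the brivanib libraries it would also have been below that limit. All of these markers are in the counts of 6 and 8, so neither count is free of that limit. Pi16, Clec3b and Fbln1 also passed the interaction, all below 0. Pi16, a marker of adventitial fibroblasts, was at 0, 0.0768 and 0.418 FPKM with vehicle, 13.4, 7.49 and 11.7 with brivanib, and 0.236 to 0.802 in the combination (brivanib against vehicle 3.33 ± 0.29, adjusted p = 0.000465). The summed level of the 15 fibroblast markers came mostly from Lum, Dcn, Gsn and Twist2. With brivanib it was 594 to 859 FPKM, which overlapped vehicle (513 to 742) and cisplatin (472 to 638). In the combination it was 469 to 568 FPKM, below every brivanib library. Tcf21 was listed at 0 in all libraries. Of 9 tested pericyte and smooth muscle markers 2 rose, Acta2 and Tagln, the latter from 3.18 ± 1.62 to 22.7 ± 4.86 FPKM (2.55 ± 0.36, adjusted p = 0.00402). In the combination 4 of the 9 were lower than with brivanib (Rgs5, Tagln, Mcam and Acta2), and Rgs5 and Mcam were also lower than with vehicle. Rgs5, a pericyte gene, had means of 16.5 FPKM with vehicle, 7.74 with cisplatin, 17.5 with brivanib and 5.75 in the combination. The combination stood at -1.40 ± 0.21 against vehicle (adjusted p = 0.0102). For cisplatin against vehicle 0 of the 9 markers passed by limma, against 0.19% of all genes, although Rgs5 was low there too. The summed level of the 12 pericyte and smooth muscle markers was 82.8 to 135 FPKM with brivanib and 29.7 to 61.6 in the other 9 libraries, with no overlap. Much of it came from Acta2 and Tagln, at 20.5 to 36.1 and 17.1 to 26.0 FPKM with brivanib and at most 10.9 and 10.0 elsewhere. Des was at 2.83, 19.3 and 10.3 FPKM in brivanib 2, 3 and 5. The median log2 fold change of the tested markers was 0.06 for brivanib against vehicle. The summed level of the 8 Schwann cell markers did not overlap either, at 20.8 to 27.6 FPKM with brivanib and 6.32 to 13.6 elsewhere. Of its 2 tested markers Pmp22 rose with brivanib and was lower in the combination. The part of these cells in the collagen differences was not tested.

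Summed skeletal muscle markers were at 352 and 300 FPKM in brivanib 3 and 5, 62.1 in combination 2, 28.5 and 21.4 in cisplatin 1 and 3, and 0.989 to 2.59 in the other libraries. Brivanib 2, at 1.54 FPKM, had muscle markers within that low range and the highest Col1a1, Col1a2, Col5a2 and Col12a1 of all libraries. Col6a3 and Col14a1 were highest in the muscle-rich brivanib 3, at 31.9 and 11.35 FPKM, against 26.8 and 8.585 in brivanib 2. With brivanib 2 as the only brivanib library, assumed to vary like the other groups, Col1a1 was 5.56 ± 1.25 above vehicle (adjusted p = 0.0801) and 2 of 18 chains were called, Col14a1 and Col12a1. With the muscle score as a covariate 2 of 18 were called, with log2 fold changes near those without it: 3.39 ± 0.59 for Col12a1 (adjusted p = 0.0425) and 2.64 ± 0.37 for Col14a1 (adjusted p = 0.0223). Col1a1, no longer called, was at 4.95 ± 1.15 (adjusted p = 0.0996). Summed adipocyte markers were 30.9 to 32.2 FPKM with vehicle, 26.8 to 91.4 with cisplatin, 62.3 to 319 with brivanib and 116 to 352 in the combination. With the adipocyte score as a covariate 1 chain was called, Col14a1 (2.51 ± 0.32, adjusted p = 0.0181), and Col1a1 was at 4.53 ± 1.09 (adjusted p = 0.121).

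Summed macrophage markers were 347 to 428 FPKM with brivanib and 83.5 to 295 in the other 9 libraries, with no overlap, and so separated brivanib from the rest as Col1a1 did. Of the 10 markers 2, Cd163 and Cd68, passed higher with brivanib than with vehicle, against 1.71% of all genes. With the macrophage score as a covariate, 0 of 18 chains and 1 of 14246 genes were called for brivanib against vehicle by limma. In that comparison Col1a1 was then at 3.69 ± 1.27 (adjusted p = 0.474) and Col14a1 at 2.42 ± 0.42 (adjusted p = 0.151). For the combination against brivanib 0 of 18 chains were called with this covariate, and Col14a1 was at -2.37 (adjusted p = 0.0941). Macrophage content and brivanib treatment cannot be told apart with these libraries. Endothelial markers had overlapping sums with vehicle (146 to 167 FPKM) and brivanib (127 to 194). Between these groups 0 of 13 passed by limma, where 1.81% of all genes passed. The sums were 130 to 210 FPKM with cisplatin and 117 to 144 in the combination, the latter below every vehicle library. For the combination against vehicle 0 of 13 passed by limma, where 2.34% of all genes passed. Against brivanib 1 passed lower, Tek, where 1.85% of all genes did. All 10 keratinocyte markers were below the limit for testing, with a summed level of at most 1.66 FPKM in any library.

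**Figure D4:**
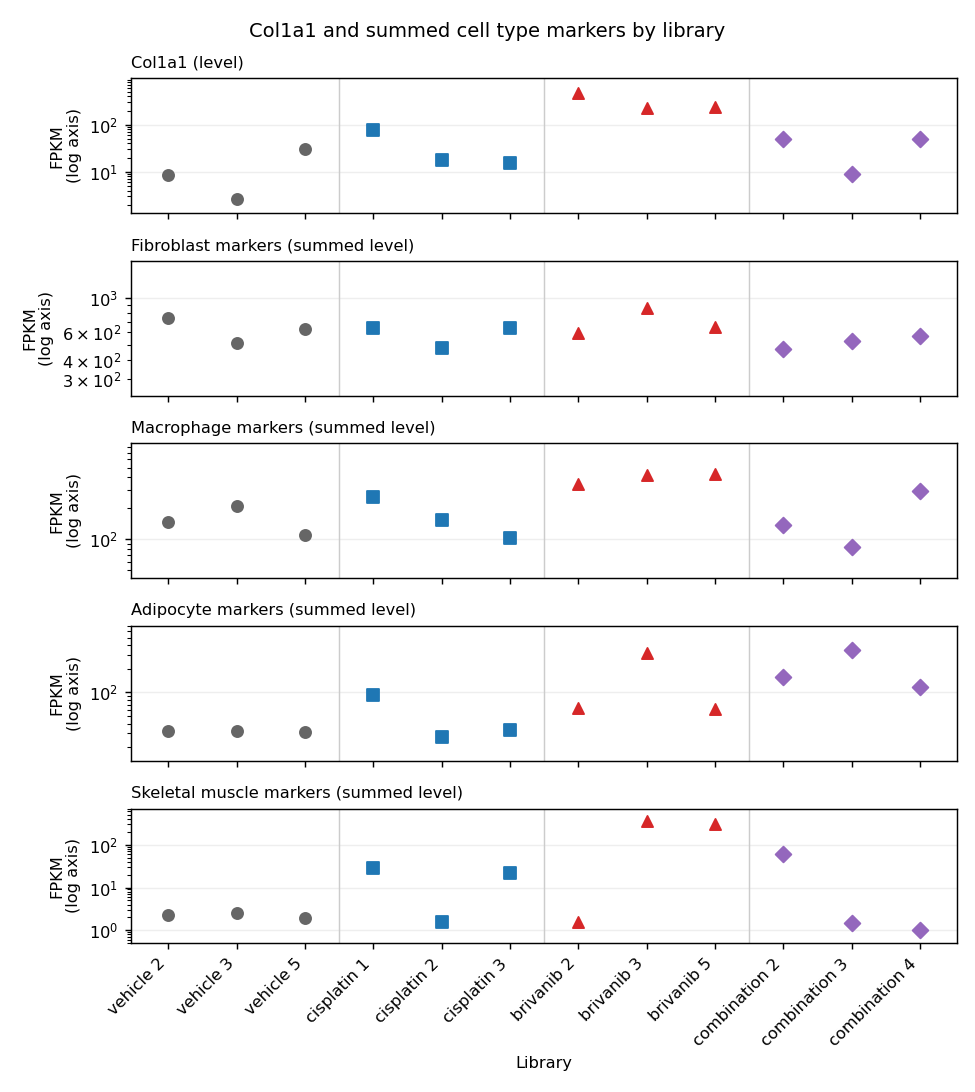
Col1a1 level and summed levels of fibroblast, macrophage, adipocyte and skeletal muscle markers (FPKM, log axes) in each of the 12 libraries. Col1a1 and the macrophage markers are highest in the 3 brivanib libraries. The muscle markers are high in brivanib 3 and 5 but at 1.54 FPKM in brivanib 2. The fibroblast sums with brivanib overlap those of vehicle and cisplatin and lie above those of the combination.

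Genes that act on collagen were read from lists by function. Over all tested genes, 1.71% passed higher with brivanib than with vehicle, and 1.85% passed lower in the combination than with brivanib. Of 29 tested genes of collagen maturation, 6 rose with brivanib: Loxl1, Loxl2 and Lox, which cross-link fibrils, P4ha2 and P4ha3, which hydroxylate proline in the chains, and Adamts2, which cuts off the amino-terminal propeptide. Loxl1 went from 0.914 ± 0.730 to 16.0 ± 1.99 FPKM (3.22 ± 0.39, adjusted p = 0.00236) and Adamts2 from 1.08 ± 0.617 to 6.31 ± 0.844 FPKM (1.84 ± 0.27, adjusted p = 0.00525). In the combination 5 were lower than with brivanib (Loxl1, Loxl2, Adamts2, P4ha3 and Plod2). P4ha3 also passed the interaction (-1.38 ± 0.21, adjusted p = 0.0322), at 1.67 ± 0.133 FPKM with vehicle, 2.67 ± 0.525 with cisplatin, 5.13 ± 0.533 with brivanib and 2.22 ± 0.251 in the combination. That interaction call was lost in 19 of 26 alternatives. The list's median was 0.20 for brivanib against vehicle.

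Of 12 tested genes of collagen degradation 4 rose with brivanib, against 1.71% of all genes. Mmp2, a gelatinase, went from 3.47 ± 2.53 to 33.3 ± 6.64 FPKM (3.11 ± 0.48, adjusted p = 0.00652), and Ctsk, a cysteine protease that cuts the helix, from 1.92 ± 0.684 to 14.3 ± 1.79 (2.41 ± 0.26, adjusted p = 0.000928). The inhibitors Timp1 (1.70 ± 0.25, adjusted p = 0.00496) and Timp3 (1.36 ± 0.21, adjusted p = 0.00661) rose as well. Ctsk was also higher in the combination than with vehicle, at 8.96 ± 2.40 FPKM (1.77 ± 0.26, adjusted p = 0.0102), and Timp1 was the 1 gene of the list lower in the combination than with brivanib (-1.11 ± 0.25, adjusted p = 0.0322).

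Of 7 tested collagen receptors 1 rose with brivanib, against 1.71% of all genes. This was Mrc2, which takes up cut collagen into cells, from 0.681 ± 0.305 to 6.11 ± 1.29 FPKM (2.08 ± 0.33, adjusted p = 0.00731). It was lower in the combination, at 1.27 ± 0.424 FPKM (-1.65 ± 0.33, adjusted p = 0.0215). Of 14 tested genes of TGF-beta signalling, a pathway known to drive collagen transcription, 1 rose with brivanib, against 1.71% of all genes. This was the receptor Tgfbr2 (0.69 ± 0.13, adjusted p = 0.0192). In the combination Tgfbr2 was lower than with brivanib (-0.74 ± 0.13, adjusted p = 0.0141), while the receptor Tgfbr1 (0.52 ± 0.11, adjusted p = 0.0241) and the latency protein Ltbp1 (0.70 ± 0.17, adjusted p = 0.0442) were higher. This Ltbp1 call was lost in 19 of 28 alternatives. Thus 2 of the 14 passed higher and 1 lower, where 3.87% of all genes passed in either direction. Ltbp1 was also higher in the combination than with vehicle (0.90 ± 0.17, adjusted p = 0.0234), a call lost in 9 alternatives. It was the 1 gene of the list that passed there, against 2.34% of all genes. Its means were 30.95 ± 2.14 FPKM with vehicle, 55.42 ± 11.05 with cisplatin, 36.4 ± 8.58 with brivanib and 58.85 ± 6.08 in the combination, so cisplatin alone was near the combination.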

How the data were processed

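RNA of 12 LLC tumours (4 groups, 3 libraries each) was sequenced on a BGISEQ-500, per the labels' design text. The deposited FPKM values are per transcript and were estimated by the authors with RSEM after Bowtie2 alignment, per that text. HISAT, Bowtie, Bowtie2 2.2.5, RSEM 1.2.12 and mm9 are listed in the submitters' processing notes, while the design text gives mm10 as the build. Of 134952 transcripts found in GENCODE M21 (GRCm38), 98.48% had identical coordinates, so positions are given on GRCm38. A further 1 column of per-sample values fitted no sample label and was left out, and 3 broken lines were dropped.

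Transcript values were summed per gene. Groups were compared by linear models of limma 3.58.1 (R 4.3.3) fitted to log2(FPKM + 1), a pseudocount of 1 that understates changes of low genes. All 12 libraries entered each fit (mean-variance trend, 8 residual degrees of freedom, two-sided, Benjamini-Hochberg threshold 0.05), for 14246 genes with a mean of at least 1 FPKM and 6 comparisons. Recovered fragments, whole within 0.01 for 100% of values up to 100 fragments, gave depths of 17.161 to 30.943 M and went into voom, an alternative fit. Depth limits the low chains most. RSEM splits fragments between isoforms, so gene sums were used. Marker scores are mean log2(FPKM + 1).

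Chains that passed in at least 1 comparison, the 12 most abundant chains, and up to 4 called genes per related list and comparison are named; Lox, P4ha2, Plod2, Col7a1, the low chains and the cell type markers are named outside this rule, after their values were seen. The collagen family, its related lists and the tests were chosen with earlier results of these data known, though the symbol rule holds no measured value. Alternatives covered scaling, pseudocount, filter, covariates, replicate block and leaving out libraries; 2 of 28 (macrophage covariate, muscle-rich libraries left out) were chosen after seeing the data. The procedure was tested on simulated data.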

Additional observations from a re-analysis of the deposited data

Results flagged for a closer look

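For Col14a1 the interaction test across all genes gave a difference between the brivanib effects with and without cisplatin. The difference between the 2 brivanib effects was -3.13 ± 0.41 on the log2(FPKM + 1) scale (adjusted p = 0.0129, limma with Benjamini-Hochberg adjustment): 2.92 ± 0.29 without cisplatin and -0.22 ± 0.29 with it. The levels were 0.422 ± 0.330, 0.843 ± 0.734, 9.64 ± 1.50 and 0.544 ± 0.369 FPKM (SD, n = 3) in vehicle, cisplatin, brivanib and combination libraries. The gene reached the 1 FPKM limit for testing through the brivanib libraries alone, and the call was lost in 8 of 26 alternatives.

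The same test picked out the prolyl hydroxylase gene P4ha3, with a difference of -1.38 ± 0.21 (adjusted p = 0.0322, limma), a call lost in 19 of 26 alternatives. Other chains with larger interaction values, such as Col1a1 (-4.82 ± 1.18, adjusted p = 0.157), did not pass.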

How the results depend on the processing

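For 39 gene results, 1080 values were computed under alternatives: 828 kept their direction and their side of the threshold, 252 kept the direction but missed the threshold, and 0 reversed. The count of chains higher with brivanib than vehicle (6) became 2 with the muscle score, 1 with the adipocyte score and 0 with the macrophage score as covariate, 2 without brivanib 3 and 5, and 3 to 7 without single libraries (3 without vehicle 2 or vehicle 3). The count for the combination against vehicle (0) became 1 without the level filter (Col13a1) and 0 to 1 without single libraries (Col5a3 without cisplatin 1). The count lower in the combination than with brivanib (9) became 5 with only the groups compared, which leaves fewer degrees of freedom, 4 with the muscle score, 0 with the macrophage score and 3 to 10 without single libraries (5 without brivanib 2 and 3 without brivanib 5, combination 2 or combination 3). The interaction count (1) became 0 with pseudocount 0.1, 3 with pseudocount 5, 0 with a mean of at least 5 FPKM, which Col14a1 does not reach, 6 with equal totals, 0 with voom, 0 with the muscle score, 0 with the macrophage score, 0 without brivanib 3 and 5, and 0 to 2 without single libraries (0 without vehicle 2 or 3, 2 without vehicle 5). Where no construction is named, the cause was not tested. Cisplatin against vehicle and the combination against cisplatin stayed at 0 under every alternative run.

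The replicate numbers recur across groups. With a replicate block the combination called 4 chains lower than brivanib and the interaction 0. Same-numbered libraries had correlations of -0.157 to 0.213, 2 of 13 pairs above 0.1, and 4 of 10 libraries correlated best with their own number, so the numbers were not taken to pair the samples. Depth limits chains below 1 FPKM.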
